A study of Mus musculus with 8 samples.

Results

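The immediate early and AP-1 genes were followed across 8 mouse melanomas, 7 that had become resistant to the loss of oncogenic NRAS and 1 control in which NRAS stayed on. The 10 genes are Fos, Fosb, Fosl1, Jun, Junb, Egr1, Myc, Ier3, Phlda1 and Emp1. They were taken by gene symbol from all genes with a probe on the Illumina bead array, 16593 in number. Together they have 11 of the array's 25697 probes, and 10 of the 11 were detected (detection p under 0.05) on at least 1 array, so that each gene has 1 detected probe. The second Myc probe was detected on 0 of 8 arrays and is not used further.

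The resistant group holds 7 tumours of FVB/n mice with the genotype DCT-TVA;Ink4a/Arf lox/lox, in which the receptor for avian viruses is placed in melanocytes by the Dct promoter. Cells producing 2 avian viruses, Tet-off and TRE-NRASQ61R-IRES-Cre, were injected at birth, so that mutant NRAS and Cre recombinase were made together, Cre removed p16Ink4a and p19Arf, and doxycycline in the food later switched NRAS off. Such tumours shrank at first and then no longer responded. The control group is 1 tumour, labelled NRASQ61R On, of the same mouse line in which NRAS was never switched off, and its description names NRAS-IRES-Cre with no Tet-off, so the virus it received is not settled by the labels. The tumour cells of all 8 are meant to lack both Ink4a/Arf products, in the control too, and the host's own stroma and immune cells remain in each sample. Whether the 7 tumours came from 7 mice is not stated, so p-values measure the spread between these samples alone.

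Immediate early genes are transcribed within minutes of growth factor signalling without new protein synthesis. ERK, the last kinase of the RAS pathway, phosphorylates ETS-type partners of serum response factor, and these switch on Fos and Egr1. FOS-family proteins pair with JUN-family proteins to form AP-1, a transcription factor that binds the sequence TGANTCA, and mutant RAS is known to keep several of these genes high. In melanoma cells the FOS-family member FOSL1 and the ERK target PHLDA1 are often used as readouts of pathway output.

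Promoter sequences were at hand in RefSeq (GRCm38.p6) for 6 of the 10 genes, each covering 250 bases before to 50 after an annotated start. The windows of Ier3 and Emp1, which read below the control in every resistant tumour, and Fos and Jun, the founding AP-1 subunits, which did not, are given here. Capitals mark matches to TGANTCA (AP-1), TGACG (a cyclic AMP response half-site), TGACATCA (the AP-1-like variant) and TATAAA, and the sequences run 5′ to 3′ along the gene.
Ier3, chr17:35821463-35821762 (plus strand): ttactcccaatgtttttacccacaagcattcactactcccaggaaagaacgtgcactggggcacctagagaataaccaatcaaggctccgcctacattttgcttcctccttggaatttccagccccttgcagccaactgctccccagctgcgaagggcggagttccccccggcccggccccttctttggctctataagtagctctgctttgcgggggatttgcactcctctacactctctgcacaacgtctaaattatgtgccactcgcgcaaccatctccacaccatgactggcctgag
Emp1, chr6:135362681-135362980 (plus strand): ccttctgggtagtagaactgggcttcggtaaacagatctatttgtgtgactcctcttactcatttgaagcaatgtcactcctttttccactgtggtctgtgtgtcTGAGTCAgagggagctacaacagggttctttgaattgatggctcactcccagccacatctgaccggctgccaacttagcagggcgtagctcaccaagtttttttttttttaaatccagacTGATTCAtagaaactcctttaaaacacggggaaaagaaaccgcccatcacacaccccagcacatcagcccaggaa
Fos, chr12:85473640-85473939 (plus strand): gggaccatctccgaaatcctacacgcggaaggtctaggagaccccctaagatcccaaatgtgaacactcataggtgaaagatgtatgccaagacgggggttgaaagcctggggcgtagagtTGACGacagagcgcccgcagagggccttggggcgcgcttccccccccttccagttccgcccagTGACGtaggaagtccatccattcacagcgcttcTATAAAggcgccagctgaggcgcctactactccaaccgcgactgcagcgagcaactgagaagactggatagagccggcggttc
Jun, chr4:95052173-95052472 (minus strand): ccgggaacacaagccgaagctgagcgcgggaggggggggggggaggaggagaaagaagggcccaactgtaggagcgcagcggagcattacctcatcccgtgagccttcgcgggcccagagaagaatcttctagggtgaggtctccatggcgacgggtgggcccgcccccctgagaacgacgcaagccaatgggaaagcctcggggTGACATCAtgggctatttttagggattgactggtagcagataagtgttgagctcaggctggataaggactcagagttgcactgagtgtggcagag
Emp1 carried 2 matches to TGANTCA, which begin 145 and 25 bases before its start, and such a match was found on either strand in 7.81% of 32851 promoter windows. Its second annotated promoter held none of the motifs. Fos carried 2 TGACG half-sites, at 129 and 66 bases before the start, and a TATAAA 33 bases before it. On either strand, 20.8% of windows hold TGACG and 13.6% hold TATAAA. For the 6 genes TATAAA was kept only on the gene's own strand, so its share is counted more loosely. Jun carried TGACATCA 45 bases before its start, a sequence in 3.62% of windows. Fosb and Junb each held 1 TGACG, Junb also held a TATAAA beginning at its annotated start, and Ier3 matched none of the 8 motifs searched. The others searched, on both strands, were TGACGTCA (in 1.79% of windows), CACGTG (7.15%), GCGTGGGCG (0.612%) and the CArG box that binds serum response factor (1.63%). TGACGTCA contains TGACG, and TGACG and TGACATCA were added after the sequences had been read. A match describes the letters of the window and shows no binding. A motif not found, the CArG box included, may lie outside the window of 250 bases before to 50 after the start.

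Values below are log2 intensities after background correction and quantile normalization, on which 1 unit is a 2-fold step. Levels of a gene are compared between tumours for 1 probe and never between probes. The cell type marker lists below are summed or averaged over probes, with genes undetected on an array included. Bright probes weigh most in such a sum. Between 11821 and 12851 probes were detected per array, and precision is limited by there being 8 arrays. The Nras probe read 12.03 ± 0.20 (SD, n = 7) in the resistant tumours and 11.87 in the control, which tests neither the labels nor the switch, because a probe for mouse Nras need not see the virally delivered copy. Resistant tumour 6 stood apart, with Pearson coefficients across genes of 0.878 to 0.903 with the other tumours, against 0.921 to 0.981 among those. Of 11 melanocyte marker genes on the array, 7 (Mitf, Tyr, Tyrp1, Dct, Mlana, Pax3 and Oca2) gave no detected signal in any of the 8 tumours and 4 were measured. Of these 4, Ednrb, an endothelin receptor also found on endothelial cells, read 8.76 to 10.00 in the resistant tumours and 9.60 in the control, and Gpnmb, a glycoprotein that macrophages make too, read 8.80 to 12.80 in the resistant tumours and 10.46 in the control. Pmel and Slc45a2 read at most 5.85 on any array, near the detection limit. The 7 undetected genes give the melanoma label no backing. Skeletal muscle genes averaged 11.06 in resistant tumour 1 and 8.64 in tumour 2, between 4.99 and 7.02 in the other 5, and 5.28 in the control.

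None of the 10 genes passed the test between resistant tumours and control (limma, adjusted p under 0.05 over 10461 genes), where 0.210% of all genes were called lower and 0.00956% higher. At an unadjusted p under 0.05, 1 of the 10 was lower, beside 5.35% of all genes, and 0 were higher, beside 2.86%. On average 8 of the 10 read below the control and 2 above it, beside 5428 below and 5033 above among all 10461 genes. The median difference over the 10 was -0.50, beside -0.02 over all genes tested. Egr1, Ier3 and Emp1 read below the control in all 7 resistant tumours, so 3 of 10 did, beside 17.0% of all genes. None read above it in all 7, beside 13.3%. With the array medians set equal in place of quantile normalization, Fos and Fosb joined them (5 of 10, beside 28.1% of all genes, and a median difference over all genes of -0.20). A lower mean in a bulk tumour can come from fewer cells that express a gene or from less RNA in each, and these cannot be told apart.

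**Figure D1:**
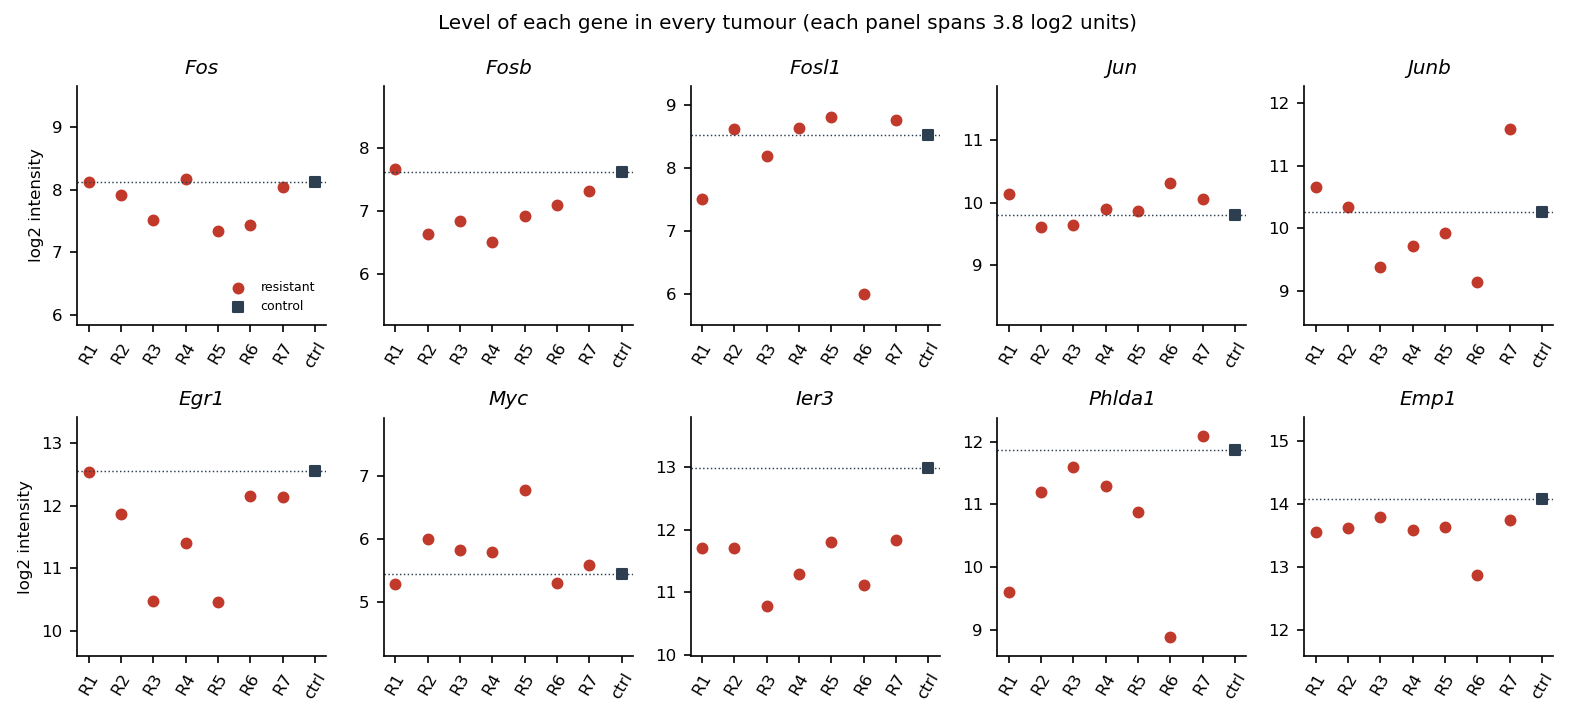
Level of each of the 10 genes in every tumour, as log2 intensity on the vertical axis, with resistant tumours 1 to 7 as circles and the control as a square at the right, its level drawn across as a dotted line. Every panel spans the same range. Ier3 is below the line in all 7 tumours by more than 1 unit, Jun stays near it, and Fosl1 and Phlda1 are lowest in tumour 6.

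Ier3, an early response gene whose product protects cells from death, separated most clearly. Its deposited intensity was between 1609.6 and 3876.9 in the resistant tumours and 9711.4 in the control. On the log2 scale the resistant tumours had a lowest level of 10.78, a median of 11.70 and a highest of 11.84, against 12.99 in the control. The groups did not overlap, and the gap from the highest resistant tumour to the control, 1.15, was larger than the 1.06 between the highest and lowest resistant tumours. Tumour 3 was lowest, 4.62-fold under the control, and tumour 7 highest, still 2.22-fold under it. The mean of 11.46 ± 0.40 (SD, n = 7) lay 1.52 below the control (difference -1.52, SE 0.41, 95% interval -2.46 to -0.59, fold 2.88), and the adjusted p was 0.334 (unadjusted 0.00546). The control would sit 3.76 SDs above the resistant mean. Over 15 alternatives the difference went from -1.79 to -1.40 and the adjusted p from 0.227 to 0.548.

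Emp1, which encodes a membrane protein of the tetraspan PMP22 family, was also under the control in every resistant tumour but by less. The resistant tumours had a lowest level of 12.87, a median of 13.62 and a highest of 13.80, against 14.09 in the control. Tumour 6 was lowest, and the others lay in a narrow band from 13.56 up. The difference was -0.54 (SE 0.34, adjusted p = 0.722), and the interval from -1.31 to 0.23 includes 0.

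Phlda1, a pleckstrin-homology gene that ERK signalling induces, varied most among the 10 from tumour to tumour. The resistant tumours ran from 8.88 through a median of 11.20 to 12.08, against 11.87 in the control. That is a 9.20-fold range, and its SD of 1.14 exceeds that of 93.3% of genes tested. Tumours 6 and 1 were lowest, 7.94-fold and 4.79-fold under the control, whereas tumour 7 was 1.16 times its level, so the groups overlapped. The difference of the mean was -1.08 (SE 1.05, adjusted p = 0.843).

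Among FOS-family genes, Fosl1 had the widest spread. FOSL1, also called FRA1, is a family member that sustained ERK signalling stabilises. The resistant tumours read from 6.00 through a median of 8.62 to 8.81, against 8.53 in the control. Tumours 2, 4, 5 and 7 were slightly above the control, by at most 1.21 times, while tumours 3, 1 and 6 were 1.27-fold, 2.02-fold and 5.77-fold below it. In tumour 6 the deposited intensity was 127.8, with a detection p of 0.00125, so the gene was still detected there. The difference of the mean was -0.45 (SE 0.94, adjusted p = 0.932), and without tumour 6 it was -0.11.

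Fos itself, the subunit whose induction by serum defined the class, differed little. The resistant tumours read from 7.34 through 7.92 to 8.16, against 8.12 in the control. Tumours 1 and 4 were level with the control (differences of 0.0046 and 0.040), tumour 7 was -0.075 from it, and tumours 5, 6 and 3 were lowest, 1.72-fold, 1.61-fold and 1.52-fold below. The mean differed by -0.33 (SE 0.37, adjusted p = 0.873), and the interval from -1.17 to 0.51 reaches past a 2-fold loss. Fosb, a close relative of Fos, read from 6.51 through 6.93 to 7.67 in the resistant tumours, against 7.63 in the control. Tumour 1 was just above the control and the other 6 below it, tumour 4 by 2.16-fold and tumour 2 by 1.99-fold. The difference was -0.63 (SE 0.41, adjusted p = 0.740).

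The JUN family holds the partners without which FOS proteins do not bind DNA. Jun and Junb gave no common direction, and Jund, outside the 10, differed by -0.30 (SE 0.56). Jun, the classic member, was the steadiest of the 10, at 9.61 to 10.31 with a median of 9.89 in the resistant tumours, against 9.80 in the control. Its SD of 0.26 was above that of only 28.3% of genes tested. Of the 7 tumours 5 were above the control and 2 below. The difference was 0.13 (SE 0.30, adjusted p = 0.946), an interval of -0.55 to 0.80, and it was -0.21 with array medians set equal. Junb, a partner that restrains JUN at many genes, spread further, from 9.15 through 9.92 to 11.58 in the resistant tumours, against 10.26 in the control. Tumour 7 was the highest, 2.50 times the control, and tumour 6 the lowest, 2.15-fold below. The mean differed by -0.15 (SE 0.77, adjusted p = 0.975).

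Egr1, a zinc finger factor that serum response factor switches on, was below the control in all 7 resistant tumours, though tumour 1 was lower by only 1.01-fold. The resistant tumours read from 10.46 through 11.86 to 12.54, against 12.55 in the control. Tumours 5 and 3 were lowest, 4.25-fold and 4.20-fold under the control, tumours 4 and 2 were 2.20-fold and 1.61-fold under it, and tumours 7 and 6 were 1.32-fold under. The low pair read 10.46 and 10.48, and the next tumour, tumour 4, read 11.41. The difference of the mean was -0.97 (SE 0.77, adjusted p = 0.796). Myc, the growth regulator acting with MAX, was near the detection limit. The resistant tumours read 5.29 to 6.78 with a median of 5.79, against 5.45 in the control; the faintest detected probe of an array read between 5.12 and 5.36. Tumour 5 was the highest, 2.51 times the control, with a deposited intensity of 151.4, against 105.8 in the control. It was above the control in 5 of 7 tumours. The mean differed by 0.35 (SE 0.50, adjusted p = 0.907), and by 0.19 without tumour 5.

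**Figure D2:**
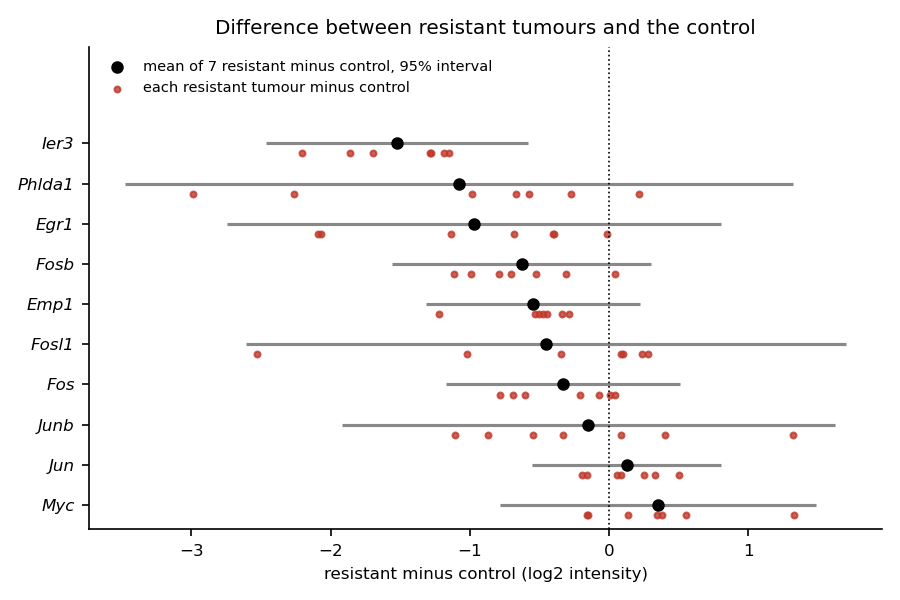
Difference between resistant tumours and control for each gene, on the log2 axis. Black points are the mean of the 7 resistant tumours minus the control with its 95% interval from the limma fit, and red points are single resistant tumours minus the control. Only the interval of Ier3, -2.46 to -0.59, lies wholly on one side of 0; these intervals are not adjusted for the number of genes.

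Set against the control 1 at a time, the resistant tumours differed in which of the 10 genes were low. Ier3 was at least 2-fold lower in all 7. Of the 70 values (10 genes in 7 tumours), 17 were at least 2-fold lower, beside 8.59% of the values of all genes, and 7 of the 17 are Ier3. Tumour 6 had 5 genes at least 2-fold lower (Fosl1, Junb, Ier3, Phlda1 and Emp1), and it also had the most such genes on the whole array, 1383 of 10461. Tumour 1 had 3 (Fosl1, Ier3 and Phlda1), with the fewest on the whole array, 552. Tumour 4 had 3 (Egr1, Fosb and Ier3), beside 908 of all genes. Tumours 3 and 5 each had 2, Egr1 and Ier3, beside 974 genes in tumour 3 and 942 in tumour 5. Tumours 2 and 7 had 1, Ier3, beside 847 genes in tumour 2 and 681 in tumour 7. At least 2-fold higher were 2 of the 70 values, Junb in tumour 7 and Myc in tumour 5, beside 6.98% of the values of all genes. Each of these folds sets a single array against the single control, without replication, and the 7 share that control.

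The tumours also differed in markers of other cells. The summed intensity of 10 measured fibroblast genes was 7071 in tumour 6 and 18544 in tumour 1, the 2 lowest, and 27386 to 47417 in the other 5, against 41295 in the control. By mean log2 level tumour 6 was again lowest, at 8.57, but tumour 3 (9.34) came before tumour 1 (9.59), with 9.85 to 10.17 in the other 4, against 9.95 in the control. Thy1 and Pi16, 2 of the 10, were highest of the 7 in tumour 1. Dcn, Pdpn, Dpt and Pdgfra were lowest of the 7 in tumour 6, but the other members were not. Col14a1 was highest there (6.71, against 5.24 in the control). Skeletal muscle genes summed to 3268 in tumour 6 and 50083 in tumour 1, with 456 to 11556 in the other 5, against 645 in the control, where 5 of 13 were detected. All 11 measured macrophage genes were detected in every tumour, and their sum was 17405 to 27206 in the resistant tumours, against 12335 in the control. The members differed: Cx3cr1, C1qa, C1qb, C1qc, Lyz2 and Adgre1 were above the control in all 7. Cd163 (8.41 in the control) and Mrc1 (11.73) were above it only in tumours 1 and 6, and Aif1, Tyrobp and Cd14 lay on both sides. The sum of 6 neutrophil genes was 336 to 3256 in the resistant tumours and 3455 in the control, with Ngp and Camp detected in none. S100a9, Csf3r and Cxcr2 were below the control in all 7. S100a8, the brightest, was above it in tumour 1 (11.39, against 11.20), and Ltf and Retnlg lay on both sides. Lymphocyte genes, of which 7 were measured and Cd4, Cd8a and Ms4a1 were undetected, summed to 5499 in tumour 1, which also had the highest Egr1 and Fosb of the 7, and to 275 to 793 in the others, against 938 in the control. Endothelial genes summed to 2350 to 5693 in the resistant tumours, against 6969 in the control. By mean log2 level, however, the control (7.91) lay within the resistant range of 7.15 to 8.27. Of 8 keratinocyte genes on the array, 6 were undetected throughout, Krt5 and Krt14 included. The part of these cells in the levels of the 10 genes was not tested. Without tumours 1 and 2, the 2 highest in muscle genes, Egr1, Fosb, Ier3 and Emp1 lay below the control in all 5 left, beside 21.1% of all genes, and 0 of the 10 passed.

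**Figure D3:**
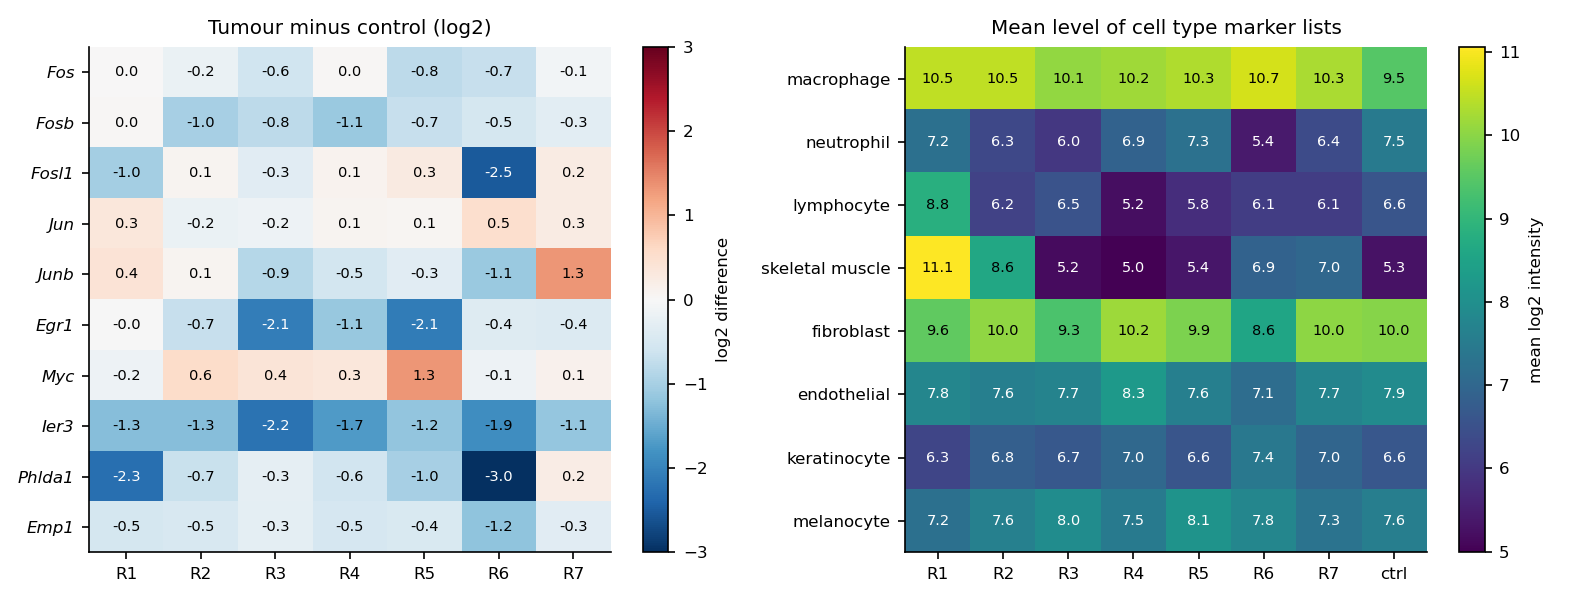
Left, each resistant tumour minus the control for the 10 genes, in log2 units. Right, the mean log2 intensity of the measured genes of each cell type marker list in all 8 tumours. Tumour 6 has the lowest Fosl1, Phlda1 and Emp1, and tumour 1 the highest muscle and lymphocyte levels.

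The genes did not move as 1 block across the resistant tumours. Of 45 pairs, 31 had a positive Pearson coefficient over the 7 resistant tumours and 14 a negative one. None passed after Benjamini-Hochberg adjustment over the 45 exact two-sided permutation tests, and 5 had an unadjusted p under 0.05 by Pearson and 4 by Spearman. With 7 tumours there are 5040 pairings, so the smallest possible p is 0.000198. The pair with the smallest p by Pearson was Phlda1 and Emp1, with an r of 0.85 (exact permutation p = 0.00357, adjusted 0.161) and a Spearman rho of 0.82 (exact permutation p = 0.0341, adjusted 0.384). Without tumours 1 and 6, which lie farthest from the Phlda1 median, r was 0.68. Fosl1 and Phlda1 had an r of 0.89 (exact permutation p = 0.0163, adjusted 0.366) and a rho of 0.54 (exact p = 0.236, adjusted 0.663), but r was -0.18 without tumours 1 and 6, so the relation rests on those 2. Fosl1 and Emp1 had the highest r, 0.89 (exact permutation p = 0.0508, adjusted 0.381), with a rho of 0.57 (exact p = 0.200, adjusted 0.600), and r was -0.55 without the same 2 tumours.

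Egr1 and Myc had the most negative coefficients among the 45 pairs, though they did not pass and Myc lay near the detection limit. Their r was -0.77 (exact permutation p = 0.0272, adjusted 0.381) and rho -0.89 (exact p = 0.0123, adjusted 0.384), and r was -0.74 without tumours 3 and 5, the 2 farthest from the Egr1 median. Junb and Ier3 had an r of 0.77 (exact permutation p = 0.0341, adjusted 0.381) and a rho of 0.82 (exact p = 0.0341, adjusted 0.384), and r was 0.79 without tumours 6 and 7. Jun and Emp1 had an r of -0.69 (exact permutation p = 0.0470, adjusted 0.381) and a rho of -0.64 (exact p = 0.139, adjusted 0.481), and r was -0.56 without tumours 2 and 6. All genes of a tumour share 1 array and its mix of cells.

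**Figure D4:**
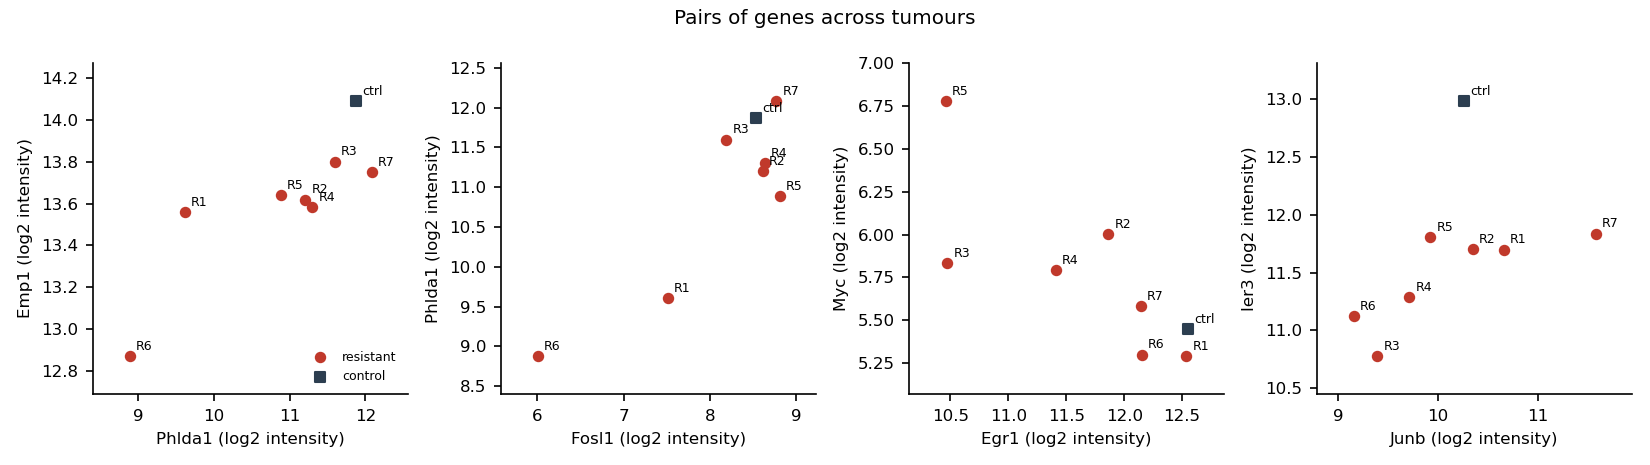
Pairs of the 10 genes across tumours, each axis the log2 intensity of 1 gene, with resistant tumours as circles and the control as a square. Phlda1 is low together with Fosl1 in tumours 6 and 1, Myc is highest where Egr1 is lowest, and the control lies far above the resistant tumours in Ier3 at a middling Junb.

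The genes most like each of the 10 were found by Pearson coefficient over all 8 tumours among 10280 genes. The 2 nearest had coefficients between 0.946 and 0.989, and a search over that many genes finds high values readily. Nearest to Ier3 were Sufu (0.986), an inhibitor of Hedgehog signalling, and Setd4 (0.963). Nearest to Junb were Ptk2b (0.970), the tyrosine kinase PYK2, and Lif (0.965), a cytokine of the interleukin 6 family. Fosl1 was followed by Eif4e2 (0.978) and Mras (0.976), a RAS-family GTPase, and Phlda1 by Med21 (0.973) and Vgll4 (0.968). Egr1 was followed by B4galt7 (0.961) and Rhbdd1 (0.946), Fos by Tmem68 (0.950) and Kng1 (0.949), and Fosb by Ctsz (0.986) and Rab43 (0.965). Jun was followed by Paxx (0.978) and Slc25a29 (0.963), Emp1 by Med19 (0.989) and H2ax (0.980), and Myc by Tacr2 (0.970) and Ace (0.967). The faintest detected probe of an array read 5.12 to 5.36, and Sufu, Setd4, Ptk2b, Lif, Tacr2 and Ace fell below that in some tumours. Their coefficients rest partly on values near background. Tacr2 and Ace were highest in tumour 5, at 6.12 and 6.60.

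Related genes were read as 7 lists, 126 genes in all with 101 measured, for the same contrast, and no member of any list passed (limma, adjusted p under 0.05). The lists were chosen with earlier results of these data known, and all genes share the 1 control. Their counts and medians are thus descriptions and test nothing. Among other immediate early genes, 18 of 24 measured members had a mean below the control, beside 5428 of all 10461 genes. In all 7 tumours 9 read below it (37.5%, beside 17.0% of all genes) and 2 above it (8.33%, beside 13.3%). The median difference was -0.47 beside -0.02. At an unadjusted p under 0.05, 2 of these 24 were lower and 1 higher. Plaur, the urokinase receptor, read 8.45 ± 0.48 (SD, n = 7) in the resistant tumours and 9.93 in the control (difference -1.48, SE 0.47, adjusted p = 0.437). Klf6, a Krüppel-like factor, read 10.70 ± 0.38 (SD, n = 7) in the resistant tumours and 11.87 in the control (difference -1.17, SE 0.39, adjusted p = 0.468), and its other probe differed by -0.70. Ccn2, the matrix protein CTGF, went the other way, at 11.17 ± 0.92 (SD, n = 7) in the resistant tumours and 9.09 in the control (difference 2.08, SE 0.85, adjusted p = 0.591). It was above the control in all 7. Of the 33 members on the array, 9 were undetected throughout, including Nr4a1, Ier2, Btg2 and Arc, all classic immediate early genes.

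**Figure D5:**
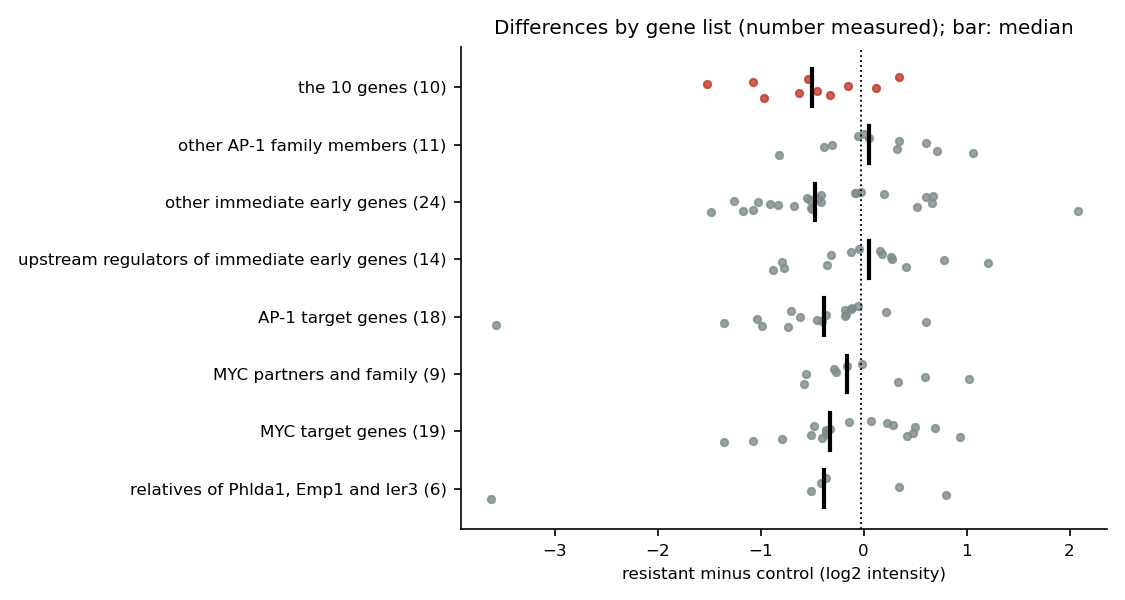
Difference between resistant tumours and control on the log2 axis for every measured gene of the 10 and of 7 related lists, 1 point per gene, with the number measured in brackets. The black bar is a list's median and the dotted line the median of all 10461 genes, -0.02.

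Of the other AP-1 family members 11 were measured, with a median of 0.056. The mean was below the control in 4 and above it in 7, beside 5428 and 5033 of all 10461 genes. Mafg, a small MAF protein, differed by -0.82 (SE 0.24, adjusted p = 0.397), below the control in all 7 tumours. Jdp2, which represses AP-1, and Atf4, the stress-response factor, differed by 1.06 (SE 0.65, adjusted p = 0.722) and 0.71 (SE 0.51, adjusted p = 0.777), above it in all 7. Among 14 regulators upstream of these genes, 7 were below and 7 above on average. Rps6ka3, the ERK-activated kinase RSK2, differed by -0.88 (SE 0.30, adjusted p = 0.492). Creb1, which binds cyclic AMP response elements, was detected in 3 of the 7 resistant tumours, each at 5.49, and in the control at 5.98. The size of its difference is not given. Its other detected probe, seen on 2 arrays, went the opposite way, at 5.11 on average in the resistant tumours and 4.77 in the control. Mrtfa, a cofactor of serum response factor, was detected in 2 resistant tumours, at 5.32 and 5.42, and not in the control.

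Of 18 measured AP-1 target genes, 16 had a mean below the control, beside 5428 of all 10461 genes, and 5 read below it in all 7 resistant tumours (27.8%, beside 17.0% of all genes). The list's median was -0.38. Plau, the urokinase protease, read 12.88 in tumour 1 and 8.51 to 9.51 in the other 6, against 13.12 in the control (difference -3.57, SE 1.39, adjusted p = 0.562). Without tumour 1 it passed, at -4.14 and an adjusted p of 0.0126, and over all its alternatives the adjusted p went from 0.0126 to 0.796. Cd44, the hyaluronan receptor, differed by -0.99 (SE 0.38, adjusted p = 0.558); its other detected probe, seen on 4 arrays, lay near the detection limit. Il6, an inflammatory cytokine, was detected in the control alone, at 5.59, where the faintest detected probe read 5.26. It was not kept at a detection p under 0.01. The bound of at least 1.27-fold lower in the resistant tumours thus rests on 1 value near background.

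Around MYC, 6 of 9 measured partners had a mean below the control and 3 above it, with a median of -0.16. Over all 10461 genes, 5428 were below and 5033 above. Max, the gene of the obligate partner, read 11.47 ± 0.14 (SD, n = 7) in the resistant tumours and 11.14 in the control, though its sign turned to -0.020 with array medians set equal. Mxi1 and Mxd4, which compete with MYC for MAX, differed by -0.57 (SE 0.31) and 1.03 (SE 0.69). Mxd4 read 5.35 in the control, where the faintest detected probe read 5.26. With the deposited normalized values the Mxd4 difference was 0.50. Of 19 MYC target genes, 11 were below and 8 above on average, beside the same 5428 and 5033 of all genes. In all 7 tumours 6 read below the control (31.6%, beside 17.0% of all genes). Nop58, a nucleolar ribosome assembly factor, differed by -1.35 (SE 0.35, adjusted p = 0.329), Odc1, ornithine decarboxylase of polyamine synthesis, by -1.07 (SE 0.52, adjusted p = 0.628) and Rrp9 by -0.80 (SE 0.46, adjusted p = 0.702).

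The relatives of Phlda1, Emp1 and Ier3 were 6, with 4 below the control on average and 2 above, beside 5428 below among all 10461 genes. Phlda2, an imprinted relative of Phlda1 that limits placental growth, was detected in 2 of 7 resistant tumours, at 6.33 and 6.39, against 8.78 in the control (adjusted p = 0.184). The size of its difference is not given, since 5 tumours lay under the detection limit. Pmp22 and Emp2, both tetraspan relatives of Emp1, differed by 0.80 (SE 0.51) and -0.51 (SE 0.47), and the other Pmp22 probe differed by 2.10.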

How the data were processed

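Total RNA of 8 tumours was biotin-labelled and read on Illumina bead arrays, 1 array a tumour, per the labels' protocols. The deposited table gives linear probe intensity with detection p-values, exported with GenomeStudio per the submitters' processing notes. The authors' normalized intensity served as an alternative, with a method that no source used here names. Symbols came from the platform annotation, updated by gene ID through RefSeq (GRCm38.p6).

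Intensities were corrected with limma's neqc (offset 16), which also quantile normalizes and takes log2. Detection (p under 0.05) on 1 or more arrays was required, and of several such probes the one with the highest mean stood for its gene (10461 genes). The 7 against 1 comparison used lmFit and eBayes (limma 3.58.1, R 4.3.3), two-sided, Benjamini-Hochberg over all genes; the 1 control is assumed to vary like the 7. The fit was tested on simulated data. A gene undetected in a whole group has only a bound there. Named genes are the members, the 3 smallest p of each list and the 2 genes most like each member. Alternatives changed background, scaling, filter, variance model, probe rule and tumours. Members and lists were chosen with earlier results of these data known. No batch is named in the files.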

Additional observations from a re-analysis of the deposited data

Results flagged for a closer look

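In 31 genes examined, the 10 and 21 named from the lists, the highest or lowest of the 7 resistant tumours was set against the others by Dixon's ratio, and 3 exceeded the critical value of 0.568. Chance flags about 1 in 20 groups. Emp1 read 12.87 in tumour 6, where the next lowest was 13.56 and the highest 13.80 (ratio 0.738). Plau read 12.88 in tumour 1, where the next highest was 9.51 and the lowest 8.51 (ratio 0.771). Max read 11.75 in tumour 6, where the next highest was 11.52 and the lowest 11.36 (ratio 0.586).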

How the results depend on the processing

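None of the 10 genes passed under any of 15 alternatives, and none of the 45 pairs did where pairs were recomputed. Direction held for 8 genes; Jun differed by -0.21 under median scaling, where Max also turned (-0.020), and Junb by 0.014 without tumour 6 (-0.39 to 0.014 with 1 tumour left out). Genes below the control in every resistant tumour numbered 5 of the 10 under median scaling and 3 to 4 with 1 resistant tumour left out. Over all genes, 1 was called higher and 22 lower. Lower calls were 8 without background correction, 9 with the deposited normalized values and 35 with no detection filter, and higher calls 4 with no filter and 3 with a trended, robust variance. Without tumours 1 and 2, chosen after seeing the data, 0 were higher and 5 lower. Leaving out 1 tumour gave 1 to 8 higher (8 without tumour 1, 3 without 6, 2 without 5 or 7) and 5 to 50 lower (50, 5, 8, 10, 40 and 14 without tumours 1, 2, 3, 4, 6 and 7). The causes of these shifts were not tested. No paired analysis was possible because the control has 1 sample. With 1 control the control's own spread is not measured, and Myc lay too near background for small differences to be read.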
